A study of Mus musculus with 18 samples.

Results

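The genes described here are the 8 mouse genes Prrx1, Prrx2, Twist1, Twist2, Snai1, Snai2, Zeb1 and Zeb2, that is, the paired-related homeobox genes and the core transcription factors of epithelial-mesenchymal transition (EMT). They are set by name and family with no measured value in the rule, although earlier results of these data were known when they were picked, and they are 8 of 24455 genes in the count table of one cancer line and 8 of 24532 in that of the other. All 8 passed the low-count filter in both tables, so no member was lost before testing. RNA was sequenced from cancer cells sorted out of hanging drop spheroids of 2 mouse lines, 168FARN (breast cancer) and LLC1 (lung cancer), both tagged with GFP. Spheroids held cancer cells alone, cancer cells with WT fibroblasts (carrying the control guide sgNS), or cancer cells with sgPrrx1 fibroblasts (Prrx1 deleted by CRISPR/Cas9), at 3 fibroblasts per cancer cell and cultured for a week. The fibroblasts mixed with 168FARN were MMTV-CAFs, cancer-associated fibroblasts from MMTV-PyMT mice, and those mixed with LLC1 were wound healing fibroblasts taken from dorsal skin on day 10 after wounding. Each line had 3 groups of 3 libraries. The cancer cells themselves carry no Prrx1 deletion in any group, so their Prrx1 level does not check the labels. Line, tumour type and fibroblast source change together and cannot be told apart.

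EMT is the switch by which epithelial cells lose cell-cell junctions and gain a motile, matrix-producing state. Snai1 and Snai2 encode zinc finger repressors, and Zeb1 and Zeb2 encode zinc finger and homeodomain repressors. All 4 proteins bind E-box sequences and are best known for silencing the E-cadherin gene Cdh1. Twist1 and Twist2 encode basic helix-loop-helix factors that bind E-boxes together with E proteins. Prrx1 and Prrx2 encode homeodomain factors of embryonic mesenchyme, and Prrx1 also serves as a marker and driver of activated fibroblasts.

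Stretches of promoter are shown because they hold the letters that these factors are known to bind. RefSeq windows on GRCm38.p6, the assembly behind mm10, were searched on both strands for the E-box CAGGTG, which reads CACCTG on the other strand, and for the homeodomain core TAATTA, and no match of one motif overlapped the other. Of all 32851 windows of 300 bases in the table, 20.2% held the E-box and 5.29% the homeodomain core. The bases before the annotated start are printed for Prrx1 (chr1:163313651-163313900, minus strand, upstream of an annotated start that lies inside the gene's span), Snai1 (chr2:167537945-167538194, plus strand) and Epcam (chr17:87635729-87635978, plus strand), an epithelial adhesion gene. Capitals mark the homeodomain core in Prrx1 and the E-boxes in Snai1 and Epcam.
Prrx1: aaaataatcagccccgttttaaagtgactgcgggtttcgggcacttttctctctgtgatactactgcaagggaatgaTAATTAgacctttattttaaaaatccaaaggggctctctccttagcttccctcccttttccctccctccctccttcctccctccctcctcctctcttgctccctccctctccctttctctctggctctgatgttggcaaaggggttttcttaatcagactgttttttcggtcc
Snai1: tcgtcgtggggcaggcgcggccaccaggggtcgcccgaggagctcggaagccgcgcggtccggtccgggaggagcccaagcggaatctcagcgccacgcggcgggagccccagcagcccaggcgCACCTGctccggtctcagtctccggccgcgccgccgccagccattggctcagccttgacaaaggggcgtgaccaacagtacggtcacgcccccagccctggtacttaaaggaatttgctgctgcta
Epcam: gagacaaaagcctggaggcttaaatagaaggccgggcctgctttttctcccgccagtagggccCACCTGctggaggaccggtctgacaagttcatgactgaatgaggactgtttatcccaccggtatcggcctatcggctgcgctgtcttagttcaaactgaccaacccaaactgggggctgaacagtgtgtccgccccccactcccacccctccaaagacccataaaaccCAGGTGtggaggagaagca
The Prrx1 match began 173 bases before the start, the Snai1 match 126 bases before it, and the Epcam matches 187 and 19 bases before it. Neither motif was found in the windows of Prrx2, Twist1 and Twist2 or in the 4 windows of Zeb2. A match is a string of letters in this window and was not tested for binding.

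The 8 genes lie on 5 chromosomes in GRCm38.p6 coordinates. On chromosome 1 are Twist2 (91801461 to 91848034) and Prrx1 (163245119 to 163315145). On chromosome 2 are Prrx2 (30845064 to 30881251), Zeb2 (44983512 to 45117442) and Snai1 (167538195 to 167542814). Twist1 is on chromosome 12 (33957671 to 33959831), Snai2 on chromosome 16 (14705852 to 14709395) and Zeb1 on chromosome 18 (5591327 to 5775468). Whether reads were counted by strand is not stated, so Zeb2 reads cannot be told apart from those of its antisense neighbour Zeb2os, which had 14 to 48 counts per 168FARN library and 99 to 175 per LLC1 library, against 1518 to 4152 and 1484 to 9149 for Zeb2.

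Library totals ran from 48315037 to 68933002 counts in 168FARN and from 66129117 to 103997557 in LLC1. The library labelled LLC1 sgPrrx1 replicate 3 stood apart: all 8 genes lay outside the range of the other 8 LLC1 libraries there, as did 73.5% of all genes tested in LLC1. LLC1 counts of called genes, and the LLC1 values of the 8 genes that pass without it, are therefore given with and without it. Nothing says that replicates came from separate cultures, so p-values measure the spread between libraries, which may be technical. The cancer lines were also checked against epithelial markers. Cdh1 had at most 3 counts in any 168FARN library and at most 8 in any LLC1 library. Epcam had 0 counts in 168FARN cells alone and in all LLC1 libraries. The keratin gene Krt8 was at 331 ± 12.5 CPM in 168FARN alone (SD, n = 3) and at 0.0499 CPM in LLC1 alone. Krt18, a keratin gene of the same marker list, had at most 4 counts in any 168FARN library and at most 35 in any LLC1 library. CPM here are counts per 1000000 of a library total scaled by TMM within each line.

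Levels between genes can be compared only per transcript length, here as CPM per kilobase of the longest protein-coding transcript. In 168FARN alone, the Twist genes led with 37.2 ± 0.923 for Twist1 and 31.2 ± 0.397 for Twist2, followed by Snai1 at 19.2 ± 0.973 (SD, n = 3). Prrx1, Prrx2 and Zeb1 were next at 13.5, 13.5 and 12.8, and neighbours in this trio overlapped between libraries. Zeb2 at 3.42 and Snai2 at 0.564 CPM per kilobase were lowest. LLC1 alone also led with the Twist genes, at 42.0 ± 2.34 for Twist2 and 39.8 ± 3.19 for Twist1, whose libraries overlapped. Snai2 stood at 28.8 ± 1.31 CPM per kilobase there, overlapping Prrx1 at 31.5 ± 3.76 and lying above Zeb1 at 18.4, Snai1 at 16.5, Prrx2 at 10.9 and Zeb2 at 8.80. The order of the Snai paralogs was thus opposite in the lines. The Snai1 to Snai2 ratio of levels per length was 34.3 ± 3.02 in 168FARN alone and 0.573 ± 0.0561 in LLC1 alone.

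**Figure D1:**
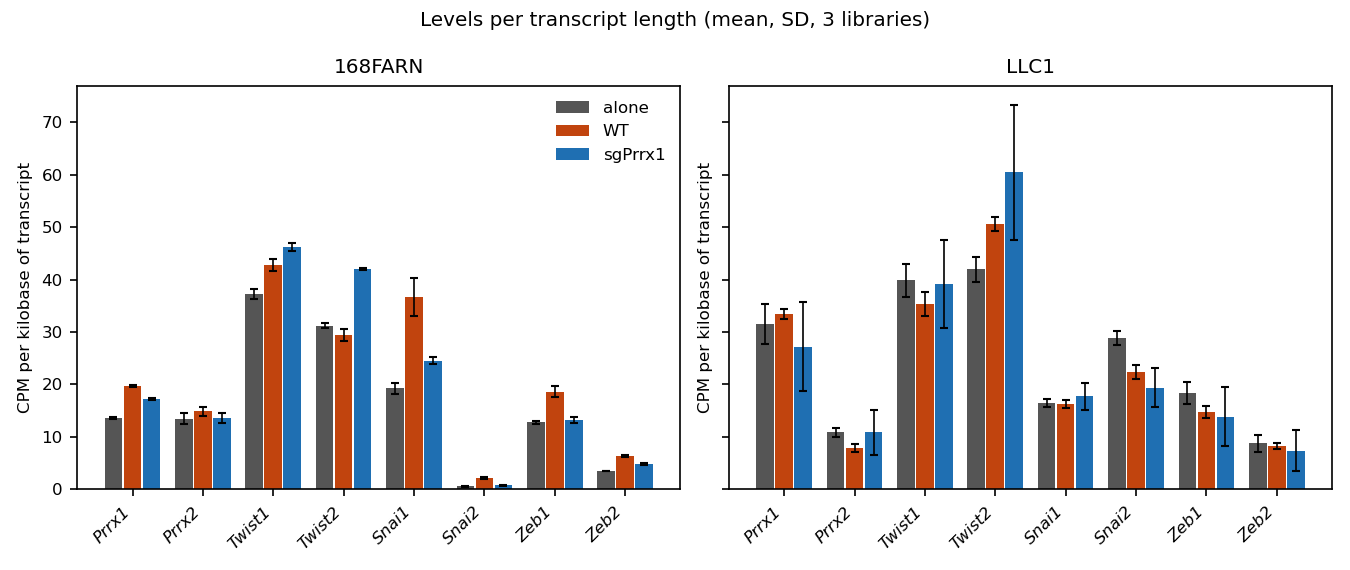
Mean CPM per kilobase of the longest protein-coding transcript for the 8 genes in 168FARN (left) and LLC1 (right); bars are means of 3 libraries and error bars their SD. Twist1 and Twist2 led in the alone groups of both lines, and Snai2 was the lowest bar in 168FARN at 0.564 alone against 28.8 in LLC1 alone.

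Between the lines without fibroblasts, 5 of the 8 genes differed, against 70.9% of all 14367 genes tested, in an edgeR quasi-likelihood fit of both lines with Benjamini-Hochberg adjustment. All 5 were higher in LLC1, where 33.2% of all genes were higher and 37.7% lower. Snai2 was 54.6-fold higher (log2 fold change 5.77, SE 0.168, adjusted p = 3.25e-13). Zeb2 was 2.77-fold higher (log2 1.47, adjusted p = 0.000691) and Prrx1 2.51-fold higher (log2 1.33, adjusted p = 5.89e-06). Zeb1 (log2 0.63, adjusted p = 0.0210) and Twist2 (log2 0.53, adjusted p = 0.000178) differed less, and the Zeb1 call held in 21 of 25 alternative fits. For Prrx2, Twist1 and Snai1 the log2 differences were -0.21, 0.20 and -0.12, with 95% intervals that held 0. With LLC1 sgPrrx1 replicate 3 left out of the joint fit, Prrx2 and Twist1 passed the threshold as well, at log2 differences of -0.21 and 0.20, where 81.6% of all genes did.

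In 168FARN libraries, 7 of the 8 genes differed between coculture with WT MMTV-CAFs and cells alone. DESeq2 called 6 of them, without Twist2, and 8556 of 13529 genes in all. The part of fibroblast RNA in these differences was not tested. By edgeR, 6 rose and 1 fell, where 64.1% of all 13540 genes tested passed the threshold, 33.4% higher and 30.7% lower. The median log2 fold change of the 8 genes was 0.54, against 0.01 over all genes tested. The rises ran from 1.15-fold in Twist1 to 3.87-fold in Snai2, and the 3 largest were those of Snai2, Snai1 and Zeb2. For 7 of the 8 genes the libraries of both groups did not overlap, which held for 68.3% of all genes.

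Snai2 was scarce in 168FARN alone, at 1.11, 1.28 and 1.05 CPM in replicates 1 to 3. It stood at 4.12, 4.54 and 4.75 CPM with WT fibroblasts and at 1.75, 1.54 and 1.34 CPM with sgPrrx1 fibroblasts. All 3 groups were separate, with WT coculture highest. From alone to WT coculture the log2 fold change was 1.95 (SE 0.147, adjusted p = 5.83e-07), larger in size than that of 94.1% of genes tested. These levels rest on 51 to 311 counts per library.

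Snai1, which encodes the Snail repressor of E-cadherin, was at 32.5, 31.5 and 29.4 CPM in 168FARN alone. It was at 54.5, 57.8 and 66.0 CPM with WT fibroblasts and at 38.6, 40.3 and 40.5 CPM with sgPrrx1 fibroblasts. Here too the groups did not overlap, and WT coculture was highest. The rise in WT coculture was 1.91-fold (log2 0.93, SE 0.0632, adjusted p = 2.67e-07). The Snai1 to Snai2 ratio per length, 34.3 in cells alone, was 16.7 ± 0.728 in WT coculture and 32.8 ± 5.17 in sgPrrx1 coculture (SD, n = 3), and the WT libraries lay below all others.

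Zeb2 was at 31.2, 30.9 and 31.3 CPM in 168FARN alone, at 59.0, 56.4 and 59.0 CPM with WT fibroblasts and at 44.5, 44.8 and 42.5 CPM with sgPrrx1 fibroblasts. The groups were separate and their order was that of the Snai genes. Its rise in WT coculture was 1.87-fold (log2 0.90, SE 0.0306, adjusted p = 1.23e-09). Zeb1 was at 74.5, 72.7 and 76.0 CPM alone, at 109.7, 101 and 113 CPM with WT fibroblasts and at 73.0, 80.2 and 77.2 CPM with sgPrrx1 fibroblasts. For Zeb1 the WT libraries lay above all others, while the alone and sgPrrx1 libraries overlapped. It rose 1.45-fold in WT coculture (log2 0.54, SE 0.0453, adjusted p = 1.47e-06).

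Prrx1 was at 87.2, 87.7 and 89.7 CPM in 168FARN alone, at 128, 128 and 130.1 CPM with WT fibroblasts and at 113, 112 and 111 CPM with sgPrrx1 fibroblasts. The 3 groups were again apart, with cells alone lowest. Prrx1 rose 1.46-fold in WT coculture (log2 0.54, SE 0.0260, adjusted p = 1.80e-08). Its paralog Prrx2 overlapped between groups, at 18.1 to 20.9 CPM alone, 20.0 to 22.4 CPM with WT fibroblasts and 18.1 to 20.7 CPM with sgPrrx1 fibroblasts. Prrx2 did not pass the threshold in any of the 3 comparisons of 168FARN, and its log2 fold change in WT coculture was 0.14, with a 95% interval from -0.01 to 0.29.

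The Twist genes departed from this order. Twist1 was at 61.2, 58.5 and 60.9 CPM in 168FARN alone, at 68.0, 71.3 and 68.4 CPM with WT fibroblasts and at 73.8, 74.1 and 76.1 CPM with sgPrrx1 fibroblasts. Twist2 was at 41.1, 41.4 and 42.1 CPM alone, at 40.6, 39.2 and 37.5 CPM with WT fibroblasts and at 56.1, 55.7 and 55.8 CPM with sgPrrx1 fibroblasts. For both genes the sgPrrx1 libraries were the highest and overlapped no other group. Twist1 rose by a log2 of 0.20 in WT coculture (SE 0.0314, adjusted p = 0.000180). Twist2 was 0.942-fold of its level alone (log2 -0.09, SE 0.0311, adjusted p = 0.0318), a difference that passed the threshold in 5 of 14 alternative fits, with adjusted p from 0.00951 to 0.138.

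**Figure D2:**
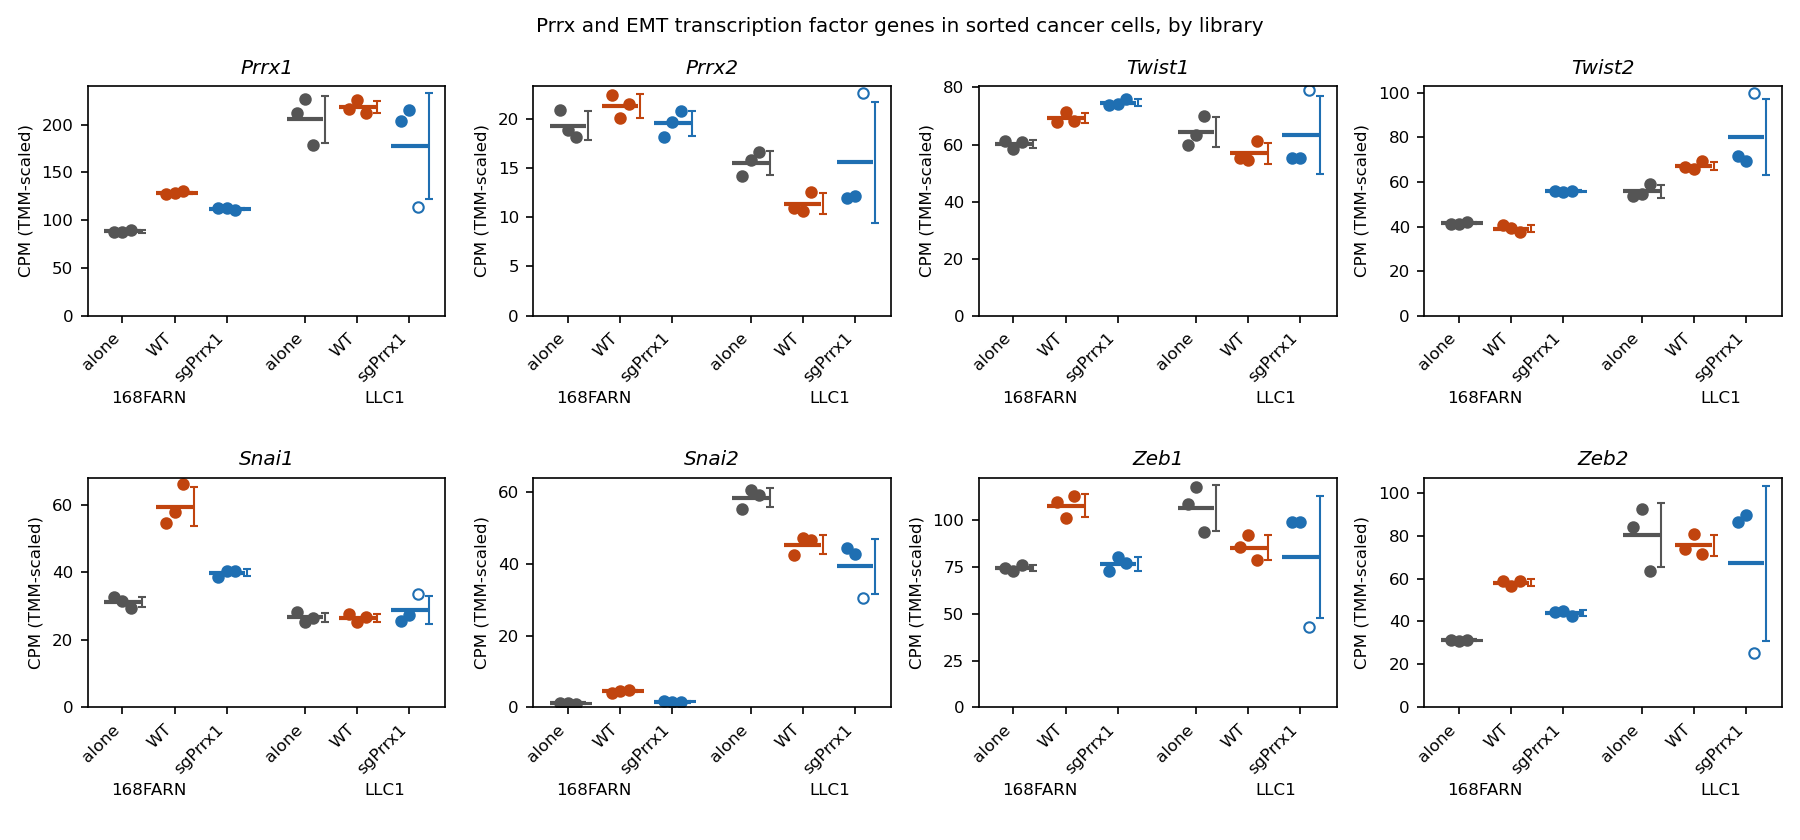
CPM after TMM scaling of the 8 genes in each library of 168FARN and LLC1, in cells alone, WT coculture and sgPrrx1 coculture; points are libraries, lines group means and error bars SD (n = 3), and the open point is LLC1 sgPrrx1 replicate 3. In 168FARN, Snai1, Snai2, Zeb1, Zeb2 and Prrx1 were highest in WT coculture and Twist1 and Twist2 in sgPrrx1 coculture. In LLC1 the open point lies outside the other 8 libraries in every panel.

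With sgPrrx1 MMTV-CAFs in place of WT, 168FARN cells had lower levels of both Snai genes, both Zeb genes and Prrx1, and higher levels of both Twist genes. That makes 7 of 8 genes past the threshold in edgeR, 5 lower and 2 higher, against 60.0% of all genes tested, 33.1% lower and 26.9% higher. The median log2 fold change was -0.30 for the 8 genes and -0.03 for all genes. Snai2 was 0.344-fold of its WT coculture level (log2 -1.54, SE 0.141, adjusted p = 3.86e-06), a change larger in size than that of 95.7% of genes. Snai1 was 0.670-fold (log2 -0.58, adjusted p = 1.33e-05), Zeb1 0.712-fold (log2 -0.49, adjusted p = 3.99e-06), Zeb2 0.756-fold (log2 -0.40, adjusted p = 7.81e-07) and Prrx1 0.872-fold (log2 -0.20, adjusted p = 5.90e-05). Twist2 was 1.43-fold higher (log2 0.51, SE 0.0308, adjusted p = 1.61e-07). Twist1 was 1.08-fold higher (log2 0.11, SE 0.0313, adjusted p = 0.0108), and this call was lost in 1 of 14 alternative fits, where its adjusted p was 0.138.

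The same 5 genes, Prrx1, Snai1, Snai2, Zeb1 and Zeb2, were thus higher with WT fibroblasts than alone and lower with sgPrrx1 than with WT fibroblasts. Among all genes tested, 22.9% did the same, and both comparisons use the same WT libraries. The share of the rise in mean CPM that remained in sgPrrx1 coculture differed from gene to gene. It was 7.11% for Zeb1 and 11.9% for Snai2, 30.5% for Snai1, 47.3% for Zeb2 and 59.3% for Prrx1. The Zeb1 share is uncertain, since its sgPrrx1 and alone libraries overlapped. For Twist1 the level in sgPrrx1 coculture was above that in WT coculture, at 160% of the rise.

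Against cells alone, 168FARN in sgPrrx1 coculture had 6 of the 8 genes higher and none lower, where 49.7% of all genes passed in edgeR, 25.7% higher and 24.1% lower. Zeb2 was 1.41-fold higher (log2 0.50, SE 0.0308, adjusted p = 2.40e-07), Twist2 1.35-fold (log2 0.43, adjusted p = 8.06e-07), Snai1 1.28-fold (log2 0.35, adjusted p = 0.000892), Prrx1 1.27-fold (log2 0.35, adjusted p = 1.11e-06) and Twist1 1.24-fold (log2 0.31, adjusted p = 1.22e-05). Snai2 was at the threshold (log2 0.41, SE 0.158, adjusted p = 0.0489) and passed it in 3 of 14 alternative fits, with adjusted p from 0.0318 to 0.153. Zeb1 did not pass, with a log2 fold change of 0.05 and a 95% interval from -0.05 to 0.15. This comparison shares the alone libraries with the WT coculture comparison.

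Fibroblast markers also differed between the 168FARN groups. Their sums had the order of Prrx1, Snai1, Snai2 and Zeb2, and not that of Twist1 and Twist2. The summed CPM of 20 fibroblast markers was 229.1 to 229.7 alone, 1193 to 1285 in WT coculture and 348 to 359 in sgPrrx1 coculture. In WT coculture 15 of the 17 markers tested rose and none fell, with a median log2 fold change of 4.86, or 4.48 with the 4 markers at 0 in all alone libraries set to a floor of 3 counts per library. In sgPrrx1 coculture against alone, 11 rose and 2 fell (Islr and Pdgfrb). In sgPrrx1 against WT coculture, 15 fell and 1 rose. The collagen gene Col1a1 was at 3.74, 161 and 10.4 CPM in the 3 groups, and the matrix gene Postn at 0, 22.1 and 0.0223 CPM. Thy1, Postn, Fbln1, Fstl1 and Meg3 were at 0 counts in every alone library, and Meg3 in all 9 libraries. The 6 defining markers (Col1a1, Col1a2, Col3a1, Dcn, Lum, Pdgfra) summed to 80.2 to 82.8 CPM alone, 732 to 801 with WT and 193 to 200.1 with sgPrrx1 fibroblasts. The 12 epithelial markers, mostly Krt8, summed to 333 to 356 CPM alone, 377 to 404 with WT and 431 to 437 with sgPrrx1 fibroblasts. Of the 5 tested in WT coculture against alone, Cldn4, Krt7, Krt8 and Krt19 rose and Ocln fell. From WT to sgPrrx1 coculture 2 rose and 2 fell. The immune markers summed to 2.71 to 4.83 CPM over the 9 libraries, with Ptprc and Cd3e at 0, from 2.71 to 3.14 alone, 3.62 to 4.25 with WT and 4.35 to 4.83 with sgPrrx1 fibroblasts. The macrophage gene Csf1r was at 0.348, 1.24 and 1.39 CPM and rose in both cocultures in edgeR (log2 1.80 and 1.96). Adgre1 of the same list had at most 3 counts in any 168FARN library. Cd79a made up most of the immune sum, at 2.51, 2.76 and 3.17 CPM, and passed in none of the 3 comparisons. The 5 endothelial markers, with Emcn at 0, summed to 3.33 to 3.95 CPM alone, 8.10 to 8.75 with WT and 7.26 to 8.29 with sgPrrx1 fibroblasts. Cdh5, which encodes VE-cadherin, was at 0.277, 5.94 and 3.90 CPM and rose in both (log2 4.35 and 3.75). Vwf, for von Willebrand factor, was at 3.10, 2.07 and 3.48 CPM, fell in WT coculture against alone (log2 -0.56, adjusted p = 0.0344) and rose from WT to sgPrrx1 coculture (log2 0.73, adjusted p = 0.0104), and Pecam1 and Tie1 passed in none of the 3 comparisons. The part of RNA from fibroblasts or these other cells in the changes of the 8 genes was not tested, and in these bulk samples more cells of a type cannot be told apart from more RNA per cell.

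**Figure D3:**
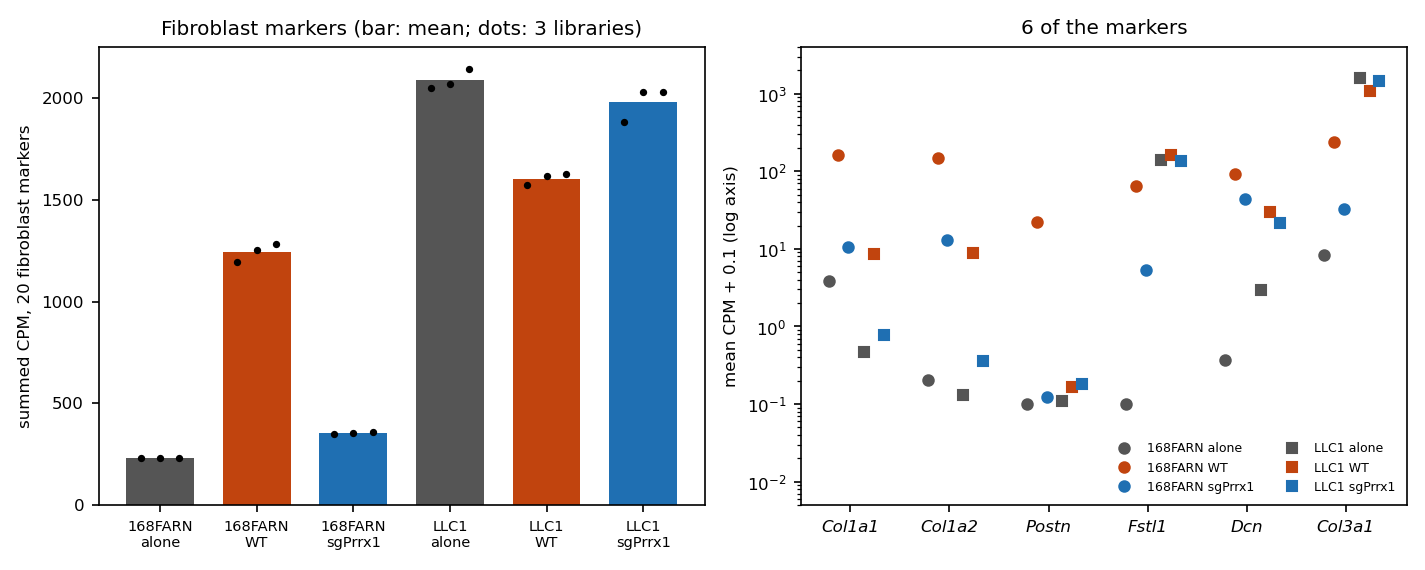
Left, summed CPM of 20 fibroblast markers per group (bar, mean; dots, the 3 libraries from lowest to highest); right, mean CPM plus 0.1 of 6 of the markers on a log axis, circles for 168FARN and squares for LLC1. The 168FARN sums lie at 229.1 to 229.7 alone, 1193 to 1285 in WT coculture and 348 to 359 in sgPrrx1 coculture, while the LLC1 sums lie at 1572 or above in every group.

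LLC1 cells gave another picture. By edgeR with all 9 libraries, none of the 8 genes passed the threshold in WT coculture against alone (background 8.83%), in sgPrrx1 coculture against alone (4.32%) or in sgPrrx1 against WT coculture (0.0544%). At an unadjusted p under 0.05 there were 1, 2 and 0 of the 8 genes, against 3110, 3052 and 1545 of all 12873. DESeq2 called 0, 2 and 0, against 2276, 1944 and 501 of all 12860. The biological coefficient of variation of the LLC1 fit was 0.228 with LLC1 sgPrrx1 replicate 3 and 0.112 without it. Without it edgeR called 4 genes in WT coculture against alone (background 44.2%), 3 in sgPrrx1 coculture against alone (26.7%) and 0 in sgPrrx1 against WT coculture (5.69%). With the replicate number as a block as well, a fit added after seeing the data, 5 and 5 were called in the comparisons with cells alone. All genes called there were 6685 and 4435. In sgPrrx1 against WT coculture without that library, none of the 8 had an unadjusted p under 0.05, against 3860 of 13088 genes. DESeq2 without it called 0 of the 8 there, and 2284 genes in all. In WT coculture against alone, 4 of the 8 genes had groups that did not overlap, against 53.2% of all genes.

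Snai2 was at 55.5, 60.6 and 59.3 CPM in LLC1 alone and at 42.4, 47.2 and 46.7 CPM with WT fibroblasts. In sgPrrx1 coculture it was at 44.6, 42.7 and 30.6 CPM. Both coculture groups lay below all libraries of cells alone, the opposite side from 168FARN. The log2 fold change in WT coculture was -0.36 (SE 0.144, adjusted p = 0.164) with all libraries, and -0.35 (SE 0.0592, adjusted p = 0.00191) without sgPrrx1 replicate 3. In sgPrrx1 coculture against alone it was -0.57 (adjusted p = 0.0650) and, without that library, -0.41 (adjusted p = 0.00305).

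Twist2 was at 53.6, 54.4 and 59.3 CPM in LLC1 alone, at 66.7, 65.9 and 69.3 CPM with WT fibroblasts and at 71.7, 69.3 and 99.9 CPM with sgPrrx1 fibroblasts. Every coculture library lay above every library of cells alone. The log2 fold change in WT coculture was 0.27 (adjusted p = 0.295) with all libraries and 0.28 (SE 0.0552, adjusted p = 0.00390) without sgPrrx1 replicate 3. Against cells alone, sgPrrx1 coculture gave 0.53 (adjusted p = 0.0787) with all libraries and 0.34 (adjusted p = 0.00472) without it. Twist1 was at 59.9, 63.3 and 70.0 CPM alone, at 55.2, 54.6 and 61.2 CPM with WT fibroblasts and at 55.5, 55.4 and 79.0 CPM with sgPrrx1 fibroblasts. Its groups overlapped, but sgPrrx1 replicates 1 and 2 lay below all libraries of cells alone. The log2 fold change of Twist1 in WT coculture was -0.18 (adjusted p = 0.547) with all libraries and -0.16 (adjusted p = 0.0936) without sgPrrx1 replicate 3. Against cells alone, sgPrrx1 coculture gave -0.02 (adjusted p = 0.933) and, without that library, -0.21 (adjusted p = 0.0872).

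Zeb1 was at 109, 118 and 93.6 CPM in LLC1 alone, at 85.7, 92.1 and 78.6 CPM with WT fibroblasts and at 99.3, 99.0 and 42.7 CPM with sgPrrx1 fibroblasts. The WT libraries lay below those of cells alone, and the log2 fold change was -0.32 (adjusted p = 0.558) with all libraries and -0.31 (SE 0.0846, adjusted p = 0.0176) without sgPrrx1 replicate 3. The Zeb1 value in sgPrrx1 coculture against alone was -0.41 (adjusted p = 0.408) and, without that library, -0.10 (adjusted p = 0.483). Zeb2 overlapped between all groups, at 84.3, 92.7 and 63.7 CPM alone, 73.9, 80.9 and 71.5 CPM with WT fibroblasts and 86.2, 89.7 and 25.4 CPM with sgPrrx1 fibroblasts. Its 95% interval in WT coculture against alone ran from -1.01 to 0.83 on the log2 scale with all libraries, and from -0.34 to 0.19 without sgPrrx1 replicate 3.

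Snai1 varied little in LLC1 outside sgPrrx1 replicate 3, at 28.1, 25.3 and 26.6 CPM alone, 27.5, 25.2 and 26.7 CPM with WT fibroblasts and 25.4, 27.4 and 33.5 CPM with sgPrrx1 fibroblasts. The log2 fold change in WT coculture was -0.01, with a 95% interval from -0.28 to 0.26, or from -0.14 to 0.14 without sgPrrx1 replicate 3. Prrx1 was at 212, 227 and 179 CPM alone, 217, 226 and 213 CPM with WT fibroblasts and 204, 215 and 114 CPM with sgPrrx1 fibroblasts, and did not pass with or without that library. Prrx2 was at 14.2, 15.8 and 16.6 CPM alone, at 11.0, 10.6 and 12.6 CPM with WT fibroblasts and at 11.9, 12.1 and 22.7 CPM with sgPrrx1 fibroblasts. Its WT libraries lay below those of cells alone, and its log2 fold change in WT coculture was -0.45 (adjusted p = 0.304) with all libraries and -0.44 (SE 0.0851, adjusted p = 0.00376) without sgPrrx1 replicate 3. In sgPrrx1 coculture against alone it was 0.00 (adjusted p = 1.00) with all libraries and -0.36 (adjusted p = 0.0234) without that library.

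In the library labelled LLC1 sgPrrx1 replicate 3, Zeb2 was 0.289-fold of the mean of replicates 1 and 2, Zeb1 0.431-fold, Prrx1 0.542-fold and Snai2 0.701-fold. Prrx2 was 1.88-fold, Twist1 1.43-fold, Twist2 1.42-fold and Snai1 1.27-fold of that mean. The Zeb2 difference was larger in size than that of 94.6% of genes tested and that of Snai1 larger than 28.2%. The group mean of each gene therefore rests on this library. Its 10 most abundant genes took 7.40% of its counts, against 5.58% to 6.31% in the other LLC1 libraries, and its fibroblast marker sum was 1886 CPM against 2032 CPM in replicates 1 and 2. The cause was not tested.

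The fibroblast marker sum was lowest in WT coculture of LLC1. It was 2051 to 2145 alone, 1572 to 1626 in WT coculture and 1886 to 2032 in sgPrrx1 coculture, and most of it was the collagen gene Col3a1. Col1a1 was at 0.375, 8.60 and 0.681 CPM in the 3 groups and Col1a2 at 0.0296, 8.68 and 0.264 CPM. In WT coculture against alone, 4 of the 13 markers tested rose in edgeR and 3 fell, and DESeq2 called 8. Without sgPrrx1 replicate 3, 6 of 14 rose and 4 fell in edgeR. Col6a3, Sfrp2, Prelp and Meg3 were at 0 counts in every alone library. The epithelial markers summed to 0.770 to 2.66 CPM and the immune markers to at most 0.283 CPM over the 9 libraries. Krt18 rose in WT coculture against alone in edgeR, at 0.0125 and 0.377 CPM. The endothelial markers summed to 0.135 to 0.479 CPM, and Vwf fell in WT coculture against alone, from 0.316 to 0.0522 CPM (log2 -2.57, adjusted p = 0.0215). Their part in the levels of the 8 genes was not tested.

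**Figure D4:**
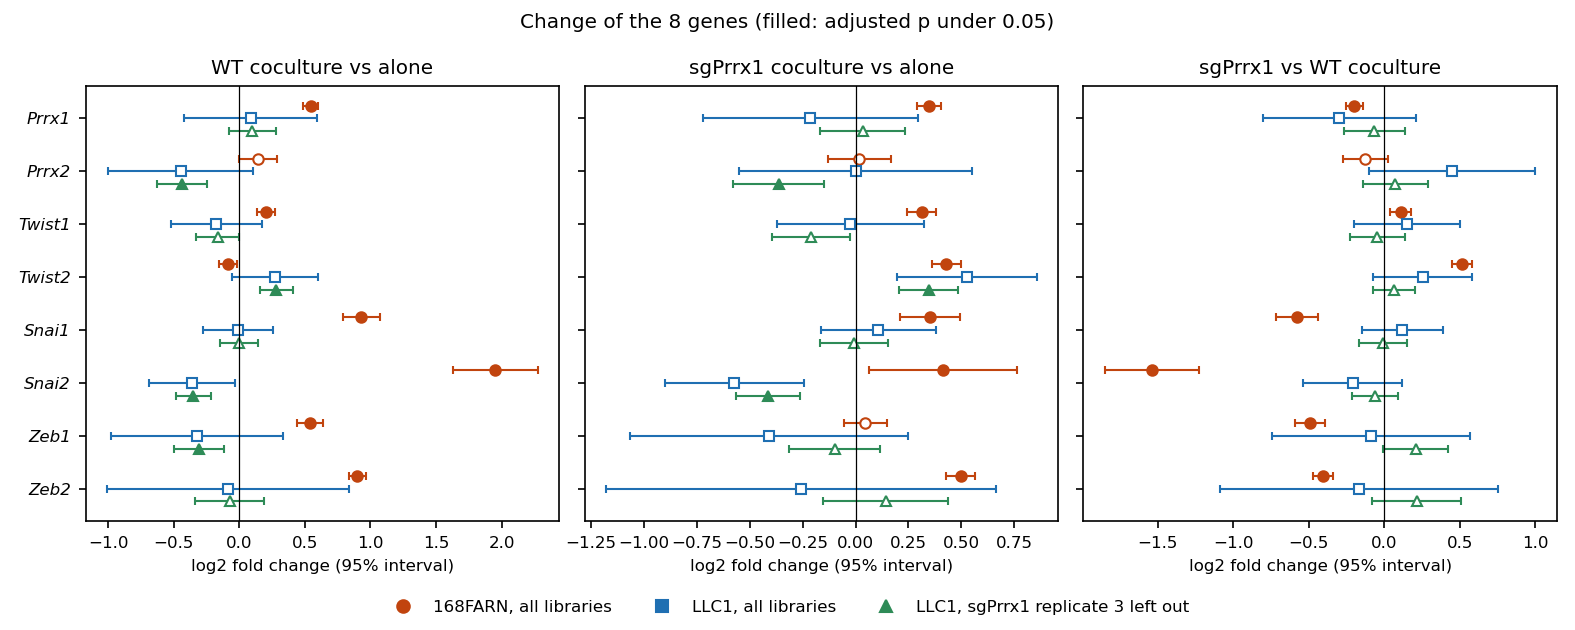
Log2 fold change of the 8 genes with 95% intervals in the 3 comparisons of each line, for 168FARN (circles), LLC1 with all libraries (squares) and LLC1 with sgPrrx1 replicate 3 left out (triangles); filled symbols have an adjusted p under 0.05 in edgeR. The 168FARN value of Snai2 is 1.95 in WT coculture against alone and -1.54 in sgPrrx1 against WT coculture, and no LLC1 symbol with all libraries is filled.

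The difference between the lines was tested as an interaction in the joint fit of 18 libraries. In WT coculture against alone, 2 of the 8 genes responded differently in LLC1 and 168FARN, against 29.4% of all genes. They were Snai2 (log2 difference -2.32, SE 0.202, adjusted p = 8.13e-07) and Snai1 (-0.94, SE 0.128, adjusted p = 5.71e-05). In sgPrrx1 coculture against alone, Snai2 alone passed (-1.00, SE 0.208, adjusted p = 0.00479), against 12.1% of all genes. In sgPrrx1 against WT coculture, Snai2 (1.31, SE 0.198, adjusted p = 0.000309) and Snai1 (0.68, SE 0.128, adjusted p = 0.00170) passed, against 19.3% of all genes. These 5 calls held in all 25 alternative fits of each. With the replicate number as a block, 6 of the 8 passed in WT coculture against alone (Zeb1, Prrx2, Twist1 and Twist2 as well), where 32.4% of all genes did. In the same fit 2 passed in sgPrrx1 coculture against alone (Twist1 as well; 2010 of 14367 genes) and 2 in sgPrrx1 against WT coculture (22.1%). Without LLC1 sgPrrx1 replicate 3, all 8 genes passed in WT coculture against alone, where 52.5% of all genes did. The added genes included Zeb2 (-0.94, adjusted p = 1.08e-05), Zeb1 (-0.82, adjusted p = 4.51e-06), Prrx1 (-0.42, adjusted p = 0.000364) and, in the other direction, Twist2 (0.40, adjusted p = 9.32e-05). In sgPrrx1 coculture against alone 5 passed without it, against 28.0% of all genes. In sgPrrx1 against WT coculture without it, Twist2 (-0.48, adjusted p = 4.70e-05), Zeb1 (0.67, adjusted p = 8.68e-05) and Zeb2 (0.59, adjusted p = 0.00159) joined the Snai genes, against 44.5% of all genes.

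Lists of related genes are read against all genes tested: in 168FARN 33.4% rose and 30.7% fell in WT coculture against alone, and 26.9% rose and 33.1% fell from WT to sgPrrx1 coculture. In sgPrrx1 coculture against alone, where 25.7% of all genes rose and 24.1% fell, 6 rose and 4 fell among partners and inhibitors, 3 and 1 among turnover genes, 5 and 2 among other EMT inducers, 3 and 2 among epithelial-state factors, 2 and 2 among epithelial targets and 10 and 3 among mesenchymal targets. In LLC1, 8.83% passed in WT coculture against alone, and 44.2% without sgPrrx1 replicate 3. Partners and inhibitors of the 8 proteins were examined as a list of 16 genes. In 168FARN, 15 were tested, and 8 rose and 4 fell in WT coculture against alone, with a median log2 fold change of 0.16. From WT to sgPrrx1 coculture 4 rose and 7 fell. The falls in WT coculture were those of Hdac1 and 3 Id genes. Id proteins bind E proteins and so keep Twist and its partners from DNA. Id2 fell from 41.8 ± 1.20 to 12.8 ± 0.162 CPM and was at 26.2 ± 1.09 CPM with sgPrrx1 fibroblasts (log2 -1.70 and, from WT to sgPrrx1 coculture, 1.03). Id3 was at 74.6, 37.0 and 53.0 CPM (log2 -1.01 and 0.51) and Id1 at 76.6, 43.6 and 76.7 CPM (log2 -0.81 and 0.81). All 6 of these adjusted p were at most 9.36e-06 in edgeR. Ajuba, a LIM protein that binds Snail proteins, rose from 23.9 ± 0.399 to 41.6 ± 1.58 CPM (log2 0.80) and was at 32.0 CPM with sgPrrx1 fibroblasts (log2 -0.38). In LLC1 with all libraries, edgeR called 1 gene of the list in WT coculture and DESeq2 called 3. The edgeR call was Id1, at 21.1 CPM alone and 37.2 CPM with WT fibroblasts (log2 0.82, adjusted p = 0.0414), the opposite side from 168FARN. Without sgPrrx1 replicate 3 its log2 fold change was 0.83 (adjusted p = 0.000103), and 7 of the 16 rose and 3 fell.

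Genes for the turnover of Snail, Zeb and Twist proteins formed a list of 10. In 168FARN, 8 rose and 1 fell in WT coculture against alone, and from WT to sgPrrx1 coculture 6 fell and 1 rose, where 60.0% of all genes passed. Pak1, a kinase that phosphorylates Snail, rose from 22.7 ± 0.277 to 64.2 ± 2.29 CPM (log2 1.50, adjusted p = 6.64e-11) and was at 33.9 CPM with sgPrrx1 fibroblasts (log2 -0.92). The deubiquitinase gene Usp9x was at 169.8, 268 and 237 CPM (log2 0.66 and -0.18). Fbxl5, for an F-box protein that targets Snail for degradation, fell from 139.8 to 107 CPM (log2 -0.39) and was at 132 CPM with sgPrrx1 fibroblasts. Btrc, for another F-box protein, was at 29.0, 33.2 and 28.1 CPM (log2 0.20 and -0.24). In LLC1 with all libraries, edgeR called 0 of the 10 in WT coculture against alone, with 1 at an unadjusted p under 0.05 and 1 called by DESeq2. Without sgPrrx1 replicate 3, 2 of the 10 fell there.

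Other factors able to induce EMT were a list of 14, of which 13 were in the tables and 8 passed the low-count filter in each line. In 168FARN, 7 rose and none fell in WT coculture against alone, with a median log2 fold change of 0.51, and 7 fell and 1 rose from WT to sgPrrx1 coculture. In sgPrrx1 coculture against alone the median was 0.50, but 5 rose and 2 fell. From WT to sgPrrx1 coculture it was -0.30, so near medians do not mean like levels gene by gene. Sox4, for a factor that acts with TGF-beta signalling, was at 3.12 ± 0.503, 14.5 ± 0.338 and 4.49 ± 0.644 CPM (log2 2.21 and -1.69). Its order across the groups was that of Snai2. Sox9 was at 44.2, 76.6 and 66.2 CPM (log2 0.79 and -0.21) and Ets1 at 83.8, 131 and 119 CPM (log2 0.64 and -0.14). In LLC1 none rose in WT coculture and 2 fell, among them Foxc1 from 17.3 to 10.1 CPM (log2 -0.77, adjusted p = 0.00515). Without sgPrrx1 replicate 3, 1 rose and 3 fell, and Foxc1 was at a log2 fold change of -0.76 (adjusted p = 8.32e-05). Snai3, the third Snail gene, had 0 counts in all 18 libraries, as did Gsc in 168FARN and Six2 in LLC1.

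Factors of the epithelial state, which oppose the Snail and Zeb repressors, were few. Of 14 such genes, 3 had 0 counts in every 168FARN library (Esrp1, Elf5, Foxa1) and 4 in every LLC1 library (Grhl3, Ovol2, Esrp1, Elf5), and 7 were tested in each line. In 168FARN, Klf5 rose from 4.08 to 8.99 CPM (log2 1.14), Gata3 from 6.84 to 10.7 CPM (log2 0.65) and Klf4 from 49.5 to 60.6 CPM (log2 0.29) in WT coculture, while Elf3 fell from 5.35 to 3.02 CPM (log2 -0.82). From WT to sgPrrx1 coculture, Klf5 (log2 -0.57) and Gata3 (log2 -0.62) fell, to 6.02 and 6.96 CPM, and Ehf rose from 2.55 to 3.45 CPM. The median of the 7 was 0.09 there and 0.29 in WT coculture against alone. In LLC1, Klf4 fell from 97.0 ± 2.71 to 43.0 ± 1.30 CPM (log2 -1.17, adjusted p = 0.00584) and was at 39.9 CPM with sgPrrx1 fibroblasts. Without sgPrrx1 replicate 3 the fold change of Klf4 was -1.16 (log2, adjusted p = 2.26e-06), and 1 of the 7 rose and 3 fell.

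Known epithelial targets of the repressors, 20 genes, were mostly at or near 0. In each line 4 had 0 counts throughout: Cldn7 and Crb3 in both, Cdh3 and Marveld2 in 168FARN, and Epcam and Cldn3 in LLC1. In 168FARN, 5 of the 9 tested rose and 3 fell in WT coculture, with a median log2 fold change of 0.09, and 4 rose and 3 fell from WT to sgPrrx1 coculture. The tight junction genes Cldn1 (3.44 to 0.941 CPM, log2 -1.88) and Ocln (3.88 to 3.11 CPM, log2 -0.32) fell, while Krt8 (331 to 372 CPM, log2 0.17) and Tjp1 (247 to 262 CPM, log2 0.09) rose. Mesenchymal targets were a list of 20, all tested in 168FARN: 16 rose and 1 fell in WT coculture, with a median log2 fold change of 1.69, and 17 fell and 1 rose from WT to sgPrrx1 coculture. Lox was at 0.216, 52.7 and 5.04 CPM (log2 7.99 and -3.38). Tnc was at 0 counts in every alone library and at 29.4 ± 1.42 CPM with WT fibroblasts, at least 519-fold higher over a floor of 3 counts per library, and 1.07 CPM with sgPrrx1 fibroblasts. Cdh2 was at 0.0205, 5.56 and 1.49 CPM and Cdh11 at 0.0636, 12.4 and 0.113 CPM. S100a4, the gene of this list that fell in WT coculture, was at 1092, 438 and 858 CPM. Fibroblasts express genes of this list too (marker sums are given above). The part of fibroblast RNA in these changes was not tested. In LLC1, 6 of the 19 tested rose and 1 fell in WT coculture. Bgn rose there from 2.03 to 12.4 CPM (log2 2.61, adjusted p = 0.000220 in edgeR), Tnc from 0.531 to 2.33 CPM (log2 2.13, adjusted p = 0.00968) and Cdh11 from 0.278 to 3.66 CPM (log2 3.71, adjusted p = 0.0244), and Pdgfrb fell from 5.59 to 2.38 CPM (log2 -1.23, adjusted p = 0.00310). Without sgPrrx1 replicate 3, 9 rose and 4 fell, and these 4 genes passed with log2 fold changes of 2.62, 2.14, 3.73 and -1.22 in the same order.

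The genes most like each of the 8 were found as those with the smallest root mean square difference in log2 CPM over the 18 libraries, after centring each line, among 12149 genes. This measure describes these libraries and says nothing of shared function. Nearest to Prrx1 were Rab6a, Ets1 and Usp25 (0.0675, 0.0676 and 0.0696), and nearest to Zeb2 were Mast4, Hipk1 and Usp9x (0.0616, 0.0904 and 0.0977). Near Zeb1 were Heatr5a and Cdc42bpa (0.0716 and 0.0719). Snai1 was closest to Pdgfa, Htra1 and Sfxn5 (0.0963 to 0.105), and Snai2 had no near match, its closest genes Alcam, Ahi1 and Cpeb1 lying at 0.220 to 0.239. The nearest genes were Tor3a, B2m and Daxx for Twist1 (0.0692 to 0.0699), Timm8a1, Trp53rkb and Ppil3 for Twist2 (0.0805 to 0.0867) and Gltscr2, Rbck1 and Pnpla2 for Prrx2 (0.0779 to 0.0881). Among the 8 themselves the closest pair was Prrx2 and Twist1 at 0.160, followed by Prrx1 and Zeb1 at 0.174 and Zeb1 and Zeb2 at 0.199. LLC1 sgPrrx1 replicate 3 is among the 18 libraries, and the measure was not computed without it. There Prrx2 and Twist1 lay above the mean of replicates 1 and 2 (log2 0.91 and 0.51). Prrx1, Zeb1 and Zeb2 lay below it (log2 -0.88, -1.21 and -1.79), so these pairs may reflect that library.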

How the data were processed

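RNA-seq of sorted cancer cells was analysed in 18 libraries, 3 for each of 3 groups in 2 lines, grouped by their titles. The authors prepared TruSeq libraries, sequenced them in 100 bp paired-end mode, trimmed the reads with Trimmomatic, mapped them to mm10 with STAR and tallied reads per gene in HTSeq. The deposited values are whole-number counts with a different total in each library. The study's methods name ComBat-seq batch correction after a sentence on human samples, and do not say whether these tables were corrected. Whole numbers do not settle it, since ComBat-seq also returns them. Whether counting used strand and the annotation are not given in the sources used here. All columns were used.

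The main tests used edgeR 4.0.16 under R 4.3.3, with filterByExpr (13540 and 12873 genes kept in 168FARN and LLC1), TMM scaling, 1 fit of the 9 libraries of a line, quasi-likelihood tests (two-sided) and Benjamini-Hochberg adjustment over all genes at 0.05. The lines were compared in a joint fit of all 18 libraries over 14367 genes. CPM were computed from the deposited counts with TMM-scaled totals. The edgeR fits of each line were also run on simulated counts with the same dispersion for every gene. No simulated library stood apart, so that run does not cover a library like LLC1 sgPrrx1 replicate 3. DESeq2 1.42.0, RLE scaling, library totals, no low-count filter, the replicate number as a block and each library left out were alternatives. Combining the block or DESeq2 with leaving out LLC1 sgPrrx1 replicate 3 was added after seeing the data.

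The text names the 8 genes, and from each gene list and line, the up to 4 called genes that changed most in WT coculture and averaged 100 counts or more, list genes at 0 throughout, overlapping genes and the 3 genes nearest to each member. Cdh1, Epcam, Hdac1, S100a4 and single markers are named outside that rule, chosen after their values were seen. Some genes that the rule names are not reported here. The members, lists and tests were chosen with earlier results of these data known. Gene positions and promoters came from RefSeq (GRCm38.p6), and transcript lengths from GENCODE vM1. Deviations of same-numbered samples correlated over 0.1 in 0 of 9 pairs in 168FARN and in 6 of 9 in LLC1 (all 3 pairs of alone and sgPrrx1). Not every pair passed, and no label ties a number to a shared culture, so the block stayed an alternative.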

Additional observations from a re-analysis of the deposited data

Results flagged for a closer look

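The response of 2 of the 8 genes differed between the lines by the interaction test in edgeR, and the cause was not tested. With 2, 1 and 2 of the 8 past the threshold in the 3 comparisons, against 29.4%, 12.1% and 19.3% of all genes, these counts lie near the background, and the values below are those of single genes. For Snai2 the log2 fold change in LLC1 minus that in 168FARN was -2.32 in WT coculture against alone, -1.00 in sgPrrx1 coculture against alone and 1.31 in sgPrrx1 against WT coculture. Snai2 was higher in all 3 WT coculture libraries of 168FARN than in its libraries alone, and lower in all 3 of LLC1. For Snai1 the differences were -0.94 in WT coculture against alone and 0.68 in sgPrrx1 against WT coculture. Snai2 started at 1.15 ± 0.118 CPM in 168FARN alone and at 58.5 ± 2.67 CPM in LLC1 alone (SD, n = 3). Line, fibroblast source and count table cannot be told apart in these differences.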

How the results depend on the processing

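Of the log2 fold changes of the 8 genes under the alternatives, 1400 stayed on their side of the threshold, 92 passed it anew, 25 lost it and 3 changed sign and passed it. Among the 1400, 54 changed sign without passing in either fit (3 in 168FARN, 33 in LLC1 and 18 in the interactions), at log2 values from -0.18 to 0.22. The 3 that passed were Prrx2 in LLC1 sgPrrx1 coculture against alone, 0.00 with all libraries and -0.36 without LLC1 sgPrrx1 replicate 3, -0.30 with the replicate block as well and -0.35 with DESeq2 as well. Leaving out 1 library at a time gave that value a range of -0.36 to 0.16.

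The LLC1 counts depended on which libraries were used. Leaving out 1 library at a time, the genes called in LLC1 ranged from 273 to 5779 in WT coculture against alone (main 1137), 52 to 3495 in sgPrrx1 coculture against alone (main 556) and 3 to 745 in sgPrrx1 against WT coculture (main 7), with 0 to 4, 0 to 3 and 0 of the 8 genes. The highest value each time was without LLC1 sgPrrx1 replicate 3. The lowest values, 273 and 52 in the comparisons with cells alone, came without LLC1 alone replicate 2 and replicate 1. For the interactions the genes ranged from 3564 to 7681, 1280 to 4097 and 2165 to 6517 in the same order (main 4229, 1742 and 2770), with 2 to 8, 1 to 5 and 2 to 5 of the 8. In 168FARN 6 to 8, 5 to 6 and 7 of the 8 were called, where 8142 to 8608, 5939 to 7004 and 7505 to 8068 of all genes were. In LLC1 alone against 168FARN alone, 4 to 7 of the 8 were called, where 9608 to 11952 of all genes were.

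With all libraries, DESeq2 called 2276, 1944 and 501 genes in the 3 LLC1 comparisons, 2 of the 8 among the second, and 2616 in the interaction for sgPrrx1 coculture against alone. Library totals without scaling gave 1 of the 8 in LLC1 sgPrrx1 coculture against alone (700 genes in all), and 5 and 2 in the first and second interaction (4368 and 1848 genes). The replicate block gave 2 genes in LLC1 sgPrrx1 against WT coculture, and 6 and 2 of the 8 in the first and second interaction (4655 and 2010 genes). Same-numbered samples had a mean correlation of -0.00870 in 168FARN and 0.151 in LLC1, over 0.1 in 0 of 9 and 6 of 9 pairs. In LLC1 the 3 pairs of alone and sgPrrx1 libraries were all over 0.1 (0.131, 0.249 and 0.419), while pairs with WT ranged from -0.0414 to 0.242. A library deviated most like its own number in 7 of 18 checks in 168FARN and 11 of 18 in LLC1. No label says that a number marks a shared culture, and not every pair was over 0.1, so the block stayed an alternative. In LLC1 sgPrrx1 coculture against alone it gave 381 genes (main 556) and 0 of the 8. The cause of these differences was not tested.

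Chosen after seeing the data, the block with that library left out gave 6685, 4435 and 1391 genes in the 3 LLC1 comparisons with 5 and 5 of the 8 in the first and second, and 8176, 4713 and 6709 genes in the interactions with 8, 7 and 5 of the 8. DESeq2 with it left out gave 6184, 4119 and 2284 genes with 4 and 3 of the 8, and 8022, 4636 and 6940 genes with 8, 6 and 5 of the 8. In LLC1 the spread with all libraries limits what could be detected: the widest 95% interval of the 8 genes in WT coculture against alone, that of Zeb2, ran from -1.01 to 0.83 (log2).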
